A study of Gasterosteus aculeatus with 79 samples.

Results

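The libraries described here come from the diencephalon of 5 male three-spined sticklebacks (Gasterosteus aculeatus) at mid hatching, when part of the clutch had left the egg, and of 4 control males sampled at the same hour. They were chosen by the sample labels alone: diencephalon, hatched clutch, experimental male, 1 pm, against diencephalon, no clutch, control male, 1 pm. The 9 libraries are 9 of the 79 of the series, which holds 39 diencephalon and 40 telencephalon libraries of 40 males in 8 groups. All males were adults caught in the wild from 1 freshwater creek and kept in separate tanks with nesting material on a long summer day. The fathers (males 73, 80, 81, 86 and 92) had built a nest, had mated and had tended their eggs until day 5 after fertilization, when the fry emerged. The control males (12, 72, 91 and 96) were reproductively mature, had no nest and so differ from the fathers in nest, mating, eggs, fry and tending at once. Every male gave 1 diencephalon library, so the replicate is the animal. Another control male of that hour gave only a telencephalon library, which is used below with the other telencephalon libraries.

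In sticklebacks the father alone guards the nest, fans the eggs with fresh water and retrieves straying fry, and the female leaves after spawning. The diencephalon holds the hypothalamus and, as dissected in this study, the preoptic area, which in vertebrates govern reproduction, feeding, stress and parental behaviour through neuropeptides and through the pituitary below them. The pineal organ is attached to its roof and the optic nerves and pituitary to its floor, so dissected pieces can carry different amounts of these tissues.

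Counts on genes ranged from 19475139 to 23533009 in the fathers and from 18672897 to 23570871 in the control males, and between 19256 and 19807 genes had a count. Aligned reads that the counting assigned to no gene are called reads outside genes here. Whether they lie in introns, on the other strand or between genes was not tested. Their share was 48.6% ± 1.26 (SD, n = 5) in the fathers and 46.3% ± 1.17 (SD, n = 4) in the control males (two-sided exact permutation test, p = 0.0476, where the smallest p that 5 against 4 allow is 0.0159). That p was above 0.05 in 8 of the 9 omissions of 1 male, at 0.0571 to 0.107, and 0.0357 without control male 12. The 2 ranges overlapped, from 47.0% to 49.7% and from 45.6% to 48.0%. Sequencing lanes and index sequences also went with the group, so that these and fatherhood cannot be told apart. Levels are given as CPM, read counts scaled to the size of the library after TMM correction, and differences as log2 of fathers over control males with the standard error (SE) of the model. Gene names could be had for 652 of the 18609 genes tested, and only from tables in which the study lists genes it had selected, in part on these same libraries. Named genes are therefore a selected set, and a direction among them is not independent evidence. Of these 652 genes 53 (8.13%) had an unadjusted p under 0.05 between fathers and control males, and in 15 (2.3%) the groups did not overlap. Over all 18609 genes tested these shares were higher, at 13.9% and 5.44%. None of the listed marker genes of single diencephalic or telencephalic regions was among the named genes, so the dissection was not checked against them.

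No gene had an adjusted p under 0.01 between the fathers and the control males (0 of 18609 genes, 0%). The test was the quasi-likelihood test of edgeR over the 39 diencephalon libraries, with Benjamini-Hochberg adjustment. The study also used 0.01, but on a false discovery rate estimated by permuting sample labels, and reported differentially expressed genes at every stage. The count of 0 is therefore not a repeat of the study's own test. The quasi-likelihood p-values weigh each difference against the spread between males within groups, estimated over all 39 diencephalon libraries and not these males alone. The lowest adjusted p was 0.127. At an unadjusted p under 0.05 there were 2581 genes (13.9%), of which 1253 (6.73%) were higher and 1328 (7.14%) lower in the fathers. DESeq2 gave 2 genes with an adjusted p under 0.01 and a likelihood ratio test gave 0. Of the 2, ENSGACG00000018668 had an extreme log2 change of -22.98 in DESeq2 and -8.84 in the quasi-likelihood test (adjusted p = 0.255). What gave a value of that size was not tested. In 1013 genes (5.44%) every father lay on one side of every control male, 435 (2.34%) above and 578 (3.11%) below. Most differences were small: 17110 genes differed by less than 1.5-fold, the median size of a difference was 0.16 on the log2 scale and the median SE was 0.16. Of the 490 genes that differed by more than 2-fold, the groups did not overlap in 48. With that share of reads (outside genes) in the model, 1383 genes had an unadjusted p under 0.05, and without father 86 there were 1765.

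**Figure D1:**
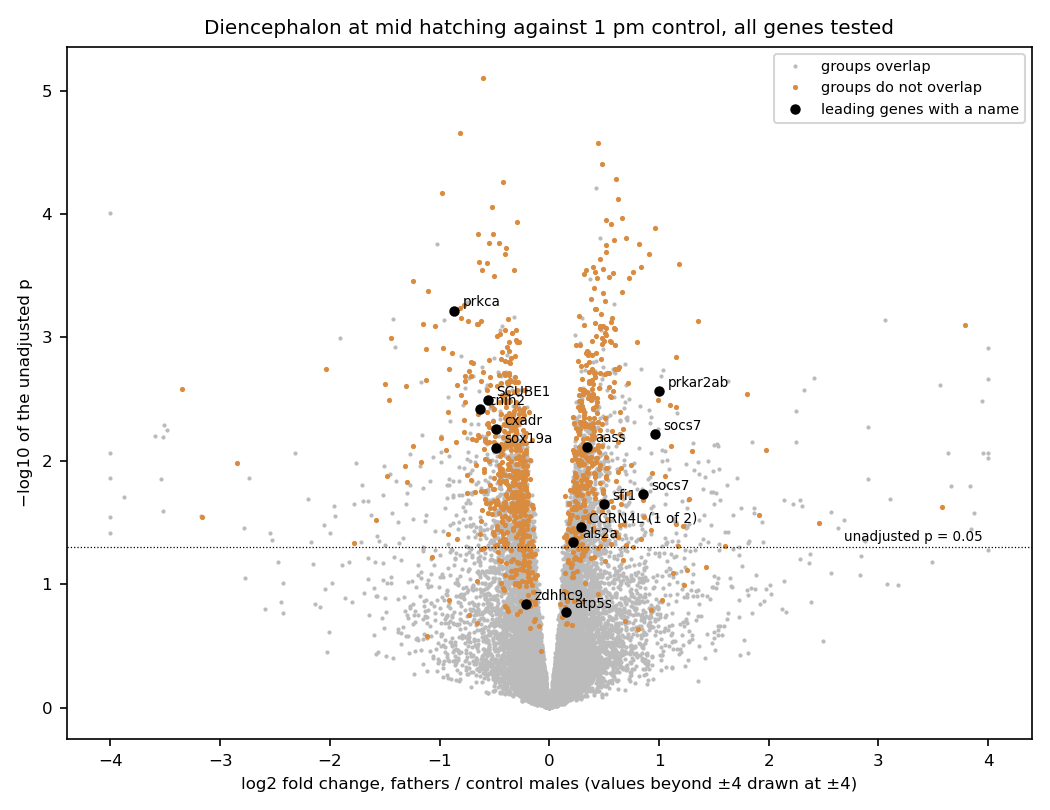
Each of the 18609 genes tested is a point, with the log2 fold change of the 5 fathers over the 4 control males on the horizontal axis and the negative log10 of the unadjusted p of the edgeR quasi-likelihood test on the vertical axis. Orange points are the 1013 genes whose groups do not overlap, black points are the 14 leading genes with a name, and none of the points has an adjusted p under 0.01.

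The genes described first are those with a name, a mean of at least 1 CPM and no overlap between the groups, ordered by p. Of these, 6 were lower and 8 higher in the fathers, and none passed the adjusted threshold. prkca and cnih2, both on the list of synaptic genes, stood lower. prkca encodes protein kinase C alpha, a kinase activated by calcium and diacylglycerol. Its level was 22.4, 17.2, 20.0, 15.6 and 19.4 CPM in fathers 73, 80, 81, 86 and 92 and 30.7, 31.0, 48.9 and 27.8 CPM in control males 12, 72, 91 and 96, the order used for all values below. Control male 91 stood far above the other 3, yet the highest father remained below the lowest control male. The difference was -0.87 (SE 0.23) on the log2 scale, with an unadjusted p of 0.000607 and an adjusted p of 0.17 in the quasi-likelihood test, and it was -0.66 without male 91. cnih2 encodes a cornichon protein, which in mammals is an auxiliary subunit of AMPA-type glutamate receptors. The fathers had 34.1, 27.0, 46.6, 30.0 and 45.0 CPM and the control males 51.9, 48.3, 76.4 and 49.7 CPM, with male 91 again the highest and father 81 just below the lowest control male. The difference was -0.63 (SE 0.20, adjusted p = 0.206), and -0.46 without male 91.

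SCUBE1 encodes a secreted and cell-surface protein with EGF-like and CUB domains. It stood at 32.8, 26.8, 26.6, 26.5 and 28.7 CPM in the fathers and 41.1, 39.7, 50.2 and 35.5 CPM in the control males, a difference of -0.56 (SE 0.18, adjusted p = 0.199). Fathers other than 73 lay within a narrow band. cxadr, a cell adhesion molecule of tight junctions known as the coxsackievirus and adenovirus receptor, had 14.1, 9.74, 12.8, 13.3 and 13.6 CPM against 16.3, 18.3, 19.1 and 17.5 CPM, a difference of -0.49 (SE 0.16, adjusted p = 0.215). sox19a, a SoxB1 transcription factor of neural progenitors in zebrafish, had 38.4, 34.6, 37.0, 29.0 and 36.6 CPM against 42.9, 52.4, 43.9 and 57.3 CPM. Its difference was -0.48 (SE 0.17, adjusted p = 0.228), with father 86 the lowest. zdhhc9, an enzyme that attaches palmitate to proteins, differed least, by -0.21 (SE 0.14, adjusted p = 0.54), at 38.2, 35.1, 37.6, 35.2 and 39.4 CPM against 46.1, 39.7, 44.6 and 41.6 CPM, where the gap between the groups was small beside the spread within them.

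Among the genes that stood higher, prkar2ab encodes a regulatory subunit of protein kinase A, which holds that kinase inactive until cyclic AMP binds. It was at 5.15, 9.28, 3.83, 4.89 and 7.46 CPM in the fathers and 3.61, 2.76, 3.51 and 2.30 CPM in the control males. Fathers 80 and 92 were well above the other 3, and father 81 was close to the highest control male. The difference was 1.00 (SE 0.31), a 2.01-fold higher level, with an adjusted p of 0.195. Both identifiers named socs7, a member of the family that damps cytokine receptor signalling, stood higher. ENSGACG00000014777 had 51.8, 62.7, 51.6, 66.9 and 55.0 CPM against 38.6, 30.6, 20.7 and 28.5 CPM, a difference of 0.96 (SE 0.33, adjusted p = 0.218). ENSGACG00000014776 had 22.4, 27.7, 21.9, 29.8 and 19.5 CPM against 17.6, 12.8, 11.2 and 12.1 CPM, a difference of 0.85 (SE 0.34, adjusted p = 0.272). The 2 identifiers are neighbours on the same linkage group and both ranked fathers 80 and 86 highest. Whether they are parts of 1 gene was not tested, so they are not counted as separate observations.

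The other 5 stood higher by less. aass, the enzyme that opens the breakdown of lysine in mitochondria, had 42.3, 44.5, 46.8, 52.2 and 46.2 CPM against 35.8, 33.9, 35.8 and 41.0 CPM, a difference of 0.34 (SE 0.12, adjusted p = 0.228). sfi1, a centrosome protein that binds centrin in yeast and human cells, had 34.7, 34.0, 46.1, 45.3 and 33.8 CPM against 26.8, 27.9, 31.7 and 23.5 CPM, a difference of 0.50 (SE 0.21, adjusted p = 0.283). Fathers 81 and 86 stood highest. CCRN4L (1 of 2), a gene of nocturnin, whose transcript follows the daily cycle in several vertebrates, had 13.4, 13.0, 14.5, 14.4 and 11.9 CPM against 11.6, 9.76, 11.2 and 11.5 CPM, a difference of 0.29 (SE 0.13, adjusted p = 0.319). als2a, which encodes alsin, an activator of the endosomal GTPase Rab5, ranged over 40.5 to 52.2 CPM against 36.9 to 40.4 CPM, and atp5s, a coupling factor of the mitochondrial ATP synthase, over 41.4 to 49.2 CPM against 36.6 to 41.3 CPM. Their differences were 0.22 (SE 0.11, adjusted p = 0.348) and 0.15 (SE 0.11, adjusted p = 0.568), and in both the lowest father was within 1 CPM of the highest control male.

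**Figure D2:**
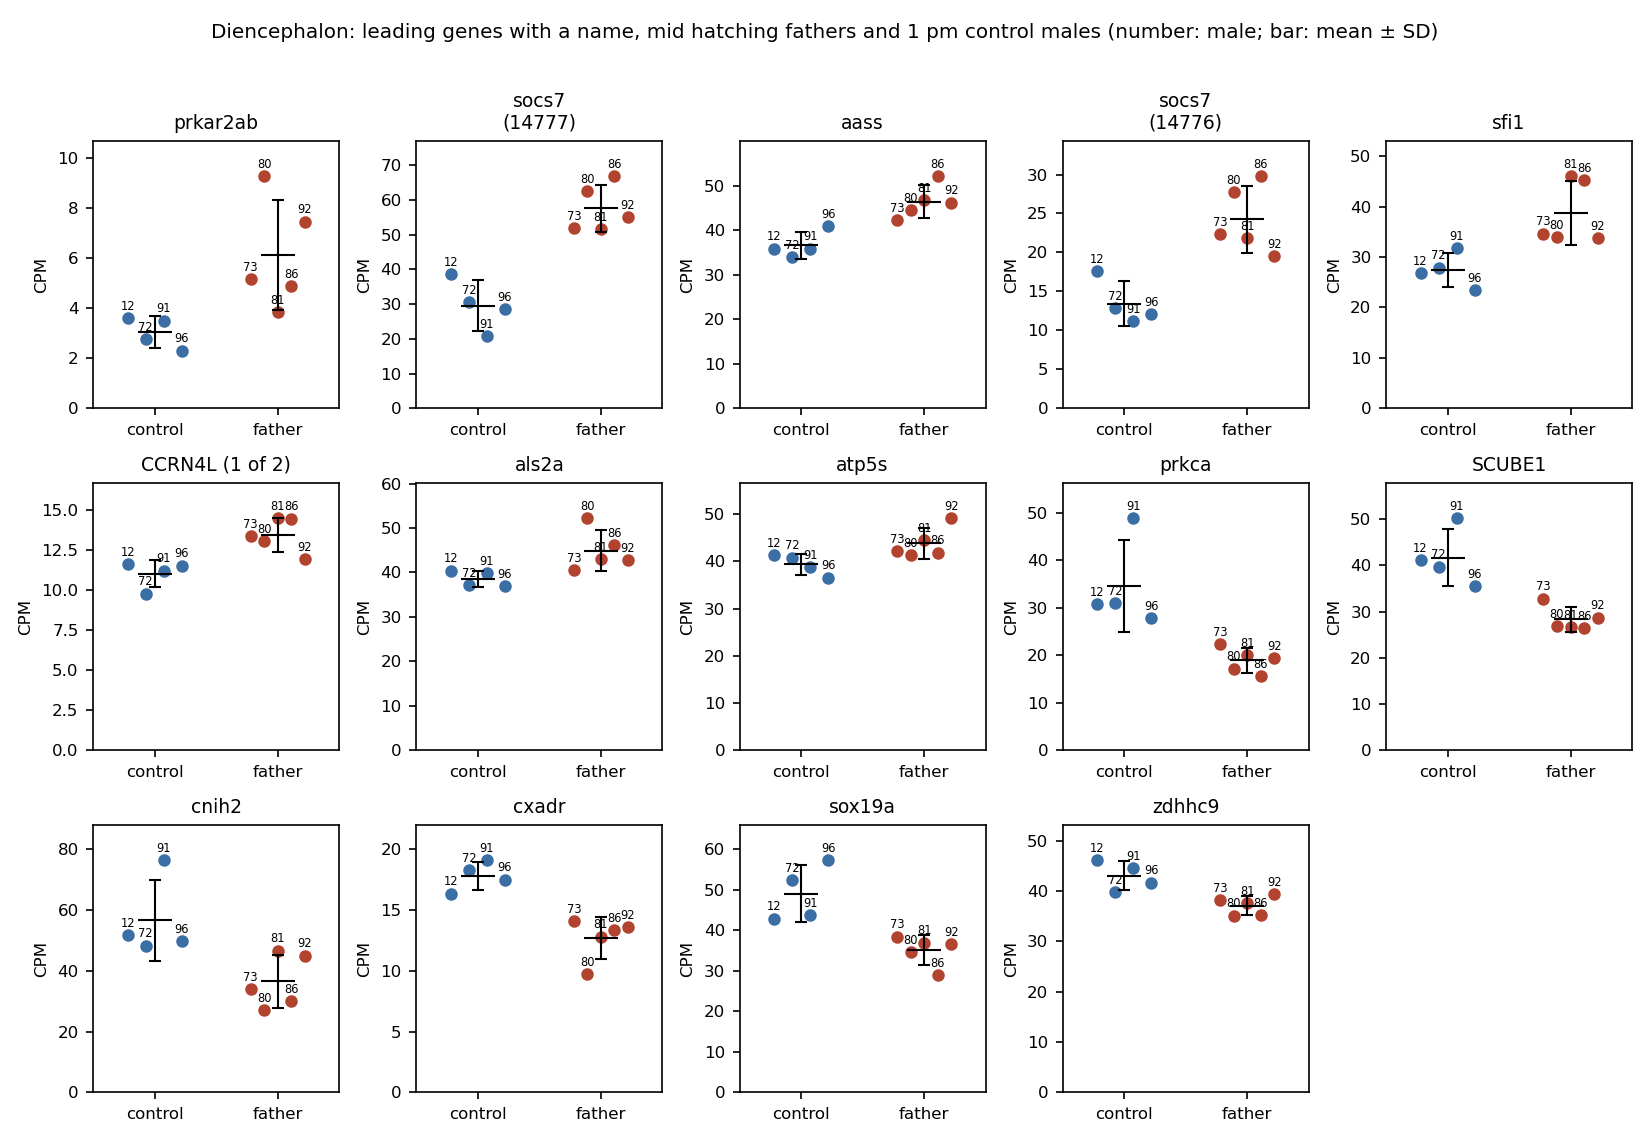
Each panel plots CPM from 0 for 1 gene, with the 4 control males of 1 pm in blue, the 5 mid hatching fathers in red, male numbers beside the points and the group mean with SD in black; the 2 socs7 panels carry the last digits of their identifiers. In every panel the groups are separate, most widely in socs7 ENSGACG00000014777 (51.6 to 66.9 against 20.7 to 38.6 CPM) and prkca (15.6 to 22.4 against 27.8 to 48.9 CPM), and in atp5s, als2a and zdhhc9 they nearly touch.

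Of the genes that carry no name in the sources used here, 2 per direction are given. They are those of lowest p with a mean of at least 1 CPM and no overlap between the groups. ENSGACG00000011932 had 27.5, 26.9, 24.1, 22.3 and 29.8 CPM in the fathers and 35.2, 43.0, 43.3 and 37.4 CPM in the control males, a difference of -0.60 (SE 0.12, unadjusted p = 7.98e-06, adjusted p = 0.127 in the quasi-likelihood test), and it is 1 of the 2 genes that DESeq2 called, with an adjusted p of 0.00383. ENSGACG00000008670 had 8.17, 6.51, 9.33, 8.34 and 9.31 CPM against 14.2, 15.1, 16.1 and 13.2 CPM, a difference of -0.81 (SE 0.17, adjusted p = 0.127). ENSGACG00000002437 had 34.1, 34.5, 35.4, 42.7 and 34.7 CPM against 27.6, 25.9, 24.2 and 28.7 CPM, a difference of 0.45 (SE 0.092, adjusted p = 0.127), and ENSGACG00000002513 had 37.6, 48.3, 48.2, 44.7 and 43.0 CPM against 35.4, 29.5, 31.1 and 30.9 CPM, a difference of 0.48 (SE 0.10, adjusted p = 0.127). That no father overlapped with a control male in these genes is the rule that chose them. Over the 17 alternative settings and omissions of a male, the 18 leading genes kept their direction in every one, and 10 of the 18 had an unadjusted p under 0.05 in every one. The 18 were chosen on these same libraries for groups that do not overlap, and those without a name also for low p. Both counts follow largely from that choice.

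No neuropeptide or hormone gene that could be matched separated the groups. Of the 8 genes that the study discusses by name and that were sought here, bdnf alone could be matched to an identifier. bdnf, a neurotrophin that supports neuronal survival and plasticity, had 32.8, 28.8, 35.9, 27.3 and 28.9 CPM in the fathers and 26.9, 25.1, 26.2 and 32.4 CPM in the control males, with a difference of 0.15 (SE 0.16, adjusted p = 0.724) and overlapping groups. adcyap1a, the precursor of PACAP, a peptide that raises cyclic AMP, ranged over 51.4 to 63.0 CPM against 44.6 to 56.2 CPM (difference 0.12, SE 0.11). npy, the appetite-promoting neuropeptide Y, ranged over 3.68 to 9.17 CPM against 6.60 to 9.25 CPM (difference -0.32, SE 0.25). None of the 5 members tested had an unadjusted p under 0.05, and their median difference was -0.035, beside 0.00 over all genes tested.

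Immediate early genes are those that neurons and glia switch on within minutes of stimulation. The 9 that could be matched, from a list of 51 entries, did not separate the groups either. None had an unadjusted p under 0.05, beside 13.9% of all genes, 7 were above 0 and 2 below, and the median difference was 0.15. dusp5, a phosphatase that shuts off ERK in the nucleus, had 50.7, 40.4, 54.3, 38.7 and 38.8 CPM against 28.3, 29.8, 44.7 and 39.5 CPM (difference 0.33, SE 0.21, adjusted p = 0.514). fos ranged over 8.83 to 21.4 CPM against 9.79 to 13.9 CPM and npas4a, an activity-induced transcription factor of neurons, over 6.03 to 8.70 CPM against 6.69 to 10.2 CPM. Father 73 had the highest fos of the 9 males. The same male had 117 CPM of cebpb and 105 CPM of cebpd, transcription factors of the acute-phase response, where the other fathers had 6.41 to 47.1 and 32.4 to 53.0 CPM. Without that father the differences of cebpb and cebpd were -0.045 and -0.065, in place of 0.84 and 0.28.

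Of the synaptic list 7 genes were tested, and 2, prkca and cnih2, had an unadjusted p under 0.05, both lower, beside 7.14% of all genes. Both are among the leading genes above, chosen for groups that do not overlap, and the median difference over the list was -0.031. Summed over the list, the fathers had 93.3, 76.0, 97.9, 71.4 and 97.4 CPM and the control males 112, 108, 159.9 and 101 CPM, of which prkca and cnih2 make up 70.0%. Without these 2 genes the sum of the other 5 was 25.7 to 36.8 CPM in the fathers and 23.2 to 34.6 CPM in the control males, and the groups overlapped. syt5a and syt5b, synaptotagmins that sense calcium for vesicle fusion, stood higher without passing, by 0.60 (SE 0.56) and 0.72 (SE 0.43). Of 13 kinase and G protein signalling genes 1 was higher (prkar2ab) and 1 lower (prkca) at that p, beside 6.73% and 7.14% of all genes, with a median of 0.14. The other members of that list are mostly phototransduction genes of the photoreceptor list, such as gnat1 and pde6g, and none of them had an unadjusted p under 0.05. gnas (2 of 2), the stimulatory G protein that activates adenylate cyclase, had 52.7, 44.8, 37.1, 41.8 and 39.6 CPM against 39.1, 36.5, 37.7 and 38.4 CPM (difference 0.19, SE 0.11, adjusted p = 0.447), where father 81 lay inside the range of the control males. The one glutamate receptor gene tested, gria3a, differed by -0.011 (SE 0.14).

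None of 10 oligodendrocyte and myelin genes passed the adjusted threshold. Their differences were below 0 in 7 and above 0 in 3, with a median of -0.16, and 2 had an unadjusted p under 0.05, both lower, beside 7.14% of all genes. UGT8, which makes the galactolipids of myelin, had 27.5, 29.0, 25.3, 29.5 and 36.1 CPM against 40.2, 38.5, 28.2 and 51.2 CPM (difference -0.42, SE 0.17, adjusted p = 0.272), and control male 91 fell among the fathers. mpz, a myelin membrane protein, had 113, 141, 133, 134 and 155 CPM against 176, 138, 197 and 203 CPM (difference -0.40, SE 0.17, adjusted p = 0.299), with control male 72 below 2 of the fathers. sox10 (2 of 2), the transcription factor of oligodendrocytes, differed by -0.22 (SE 0.12) and mbpb, myelin basic protein, by -0.18 (SE 0.18). In bulk tissue fewer cells of a type and less RNA per cell cannot be told apart.

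Genes of stress, translation and respiration that could be matched gave single members at most. serpinh1a, a collagen chaperone of the heat shock group, had 12.1, 10.9, 11.6, 11.5 and 12.6 CPM against 15.4, 18.5, 10.4 and 22.9 CPM (difference -0.52, SE 0.19, adjusted p = 0.245). The fathers lay close together and control male 91 below all of them. The other 2 of that list, gadd45ab and hmox1a, differed by 0.24 (SE 0.16) and 0.014 (SE 0.58). kri1, a ribosome assembly factor known from yeast, had 57.7, 57.4, 51.7, 59.4 and 62.3 CPM against 52.0, 43.3, 47.0 and 50.3 CPM (difference 0.26, SE 0.12, adjusted p = 0.336), with father 81 inside the range of the control males. It was the only 1 of 7 translation and ribosome assembly genes with an unadjusted p under 0.05, beside 13.9% of all genes, and the median of that list was 0.080. ndufa7, a subunit of respiratory complex I, had 38.4, 36.7, 31.8, 34.9 and 38.0 CPM against 27.9, 30.2, 29.9 and 36.3 CPM (difference 0.21, SE 0.11, adjusted p = 0.399). The 3 ribosomal protein genes differed by -0.095 to 0.075.

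The males of each group differed more among themselves than the groups did in genes of immune cells. Summed over 10 microglia and macrophage genes, the level was 1982, 141, 1341, 586 and 359 CPM in the fathers and 607, 2020.1, 209 and 459 CPM in the control males. Fathers 73 and 81 and control male 72 were high, and in all 10 genes the lowest of these 3 males was above the highest of the other 6. For lcp1, an actin-bundling protein of leukocytes, the fathers had 374, 42.3, 242, 136 and 83.6 CPM and the control males 122, 357, 46.8 and 98.4 CPM, a difference of 0.17 (SE 0.58). irf8, a transcription factor that microglia need, had 270.3, 9.03, 174, 67.8 and 36.8 CPM against 81.2, 241, 18.6 and 41.2 CPM. The innate immune list followed the same males, at 1272, 218, 933, 533 and 341 CPM against 548, 999, 328 and 340.2 CPM, and 1 of its 12 genes, irf5, had an unadjusted p under 0.05, beside 13.9% of all genes (difference 0.37, SE 0.18, adjusted p = 0.35). C4B, a complement component, had 348, 27.3, 207, 149 and 45.9 CPM against 115, 140.2, 65.8 and 38.7 CPM. Immunoproteasome and antigen presentation genes summed to 235, 100.2, 379, 198 and 185 CPM against 173, 433, 120.3 and 164 CPM. In 1 of them, psmb9a (3 of 5), father 81 and control male 72 had 10.8 and 12.8 CPM and the other 7 males at most 3.64 CPM. There are 5 psmb9a copies, among which reads could be split. Leaving out the 3 males high in microglia genes gave 0 genes under 0.01 and 2361 at an unadjusted p under 0.05.

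Genes of tissues at the border of the diencephalon varied by orders of magnitude, without following the groups. The 8 pituitary genes summed to 325, 82.8, 1083, 1373 and 2403 CPM in the fathers and 4807, 55.8, 3.60 and 693 CPM in the control males. Control male 12 had the highest and control male 91 the lowest level in all 8. For prl, the hormone prolactin, the fathers had 135, 15.9, 302, 143 and 309.8 CPM and the control males 735, 13.7, 0.137 and 33.6 CPM. The difference was -0.11 (SE 1.70) with all 9 males and 3.53 without male 12. gh1, growth hormone, had 48.0, 9.13, 294, 411 and 614 CPM against 1553, 7.37, 0.0455 and 64.9 CPM. None of the 8 had an unadjusted p under 0.05. Photoreceptor and pineal genes summed to 83.8, 314, 33.3, 49.8 and 51.1 CPM against 230.4, 64.4, 40.8 and 53.1 CPM, and in 41 of 47 of them father 80 and control male 12 were above the other 7 males. None of the 44 tested had an unadjusted p under 0.05. Of 12 muscle genes, which summed to 78.7, 156, 38.7, 62.3 and 26.2 CPM against 95.6, 22.5, 22.4 and 297 CPM, only MYH3, a myosin heavy chain, did, at 14.7, 18.1, 15.9, 9.50 and 10.7 CPM against 8.82, 7.95, 10.2 and 10.3 CPM (difference 0.56, SE 0.20, adjusted p = 0.229).

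crybb2, a lens crystallin, was chosen after its values were seen. It stood at 25.8 CPM in father 80 and at 0.0437 to 0.136 CPM in the other 4 fathers and 0 to 0.364 CPM in the control males, so 1 library makes its difference. Leaving out father 80 and control male 12, the 2 males high in photoreceptor genes, gave 0 genes under 0.01 and 2353 at an unadjusted p under 0.05. The part that these tissues or immune cells play in the other differences was not tested. The full comparison had no call that an omission could remove.

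**Figure D3:**
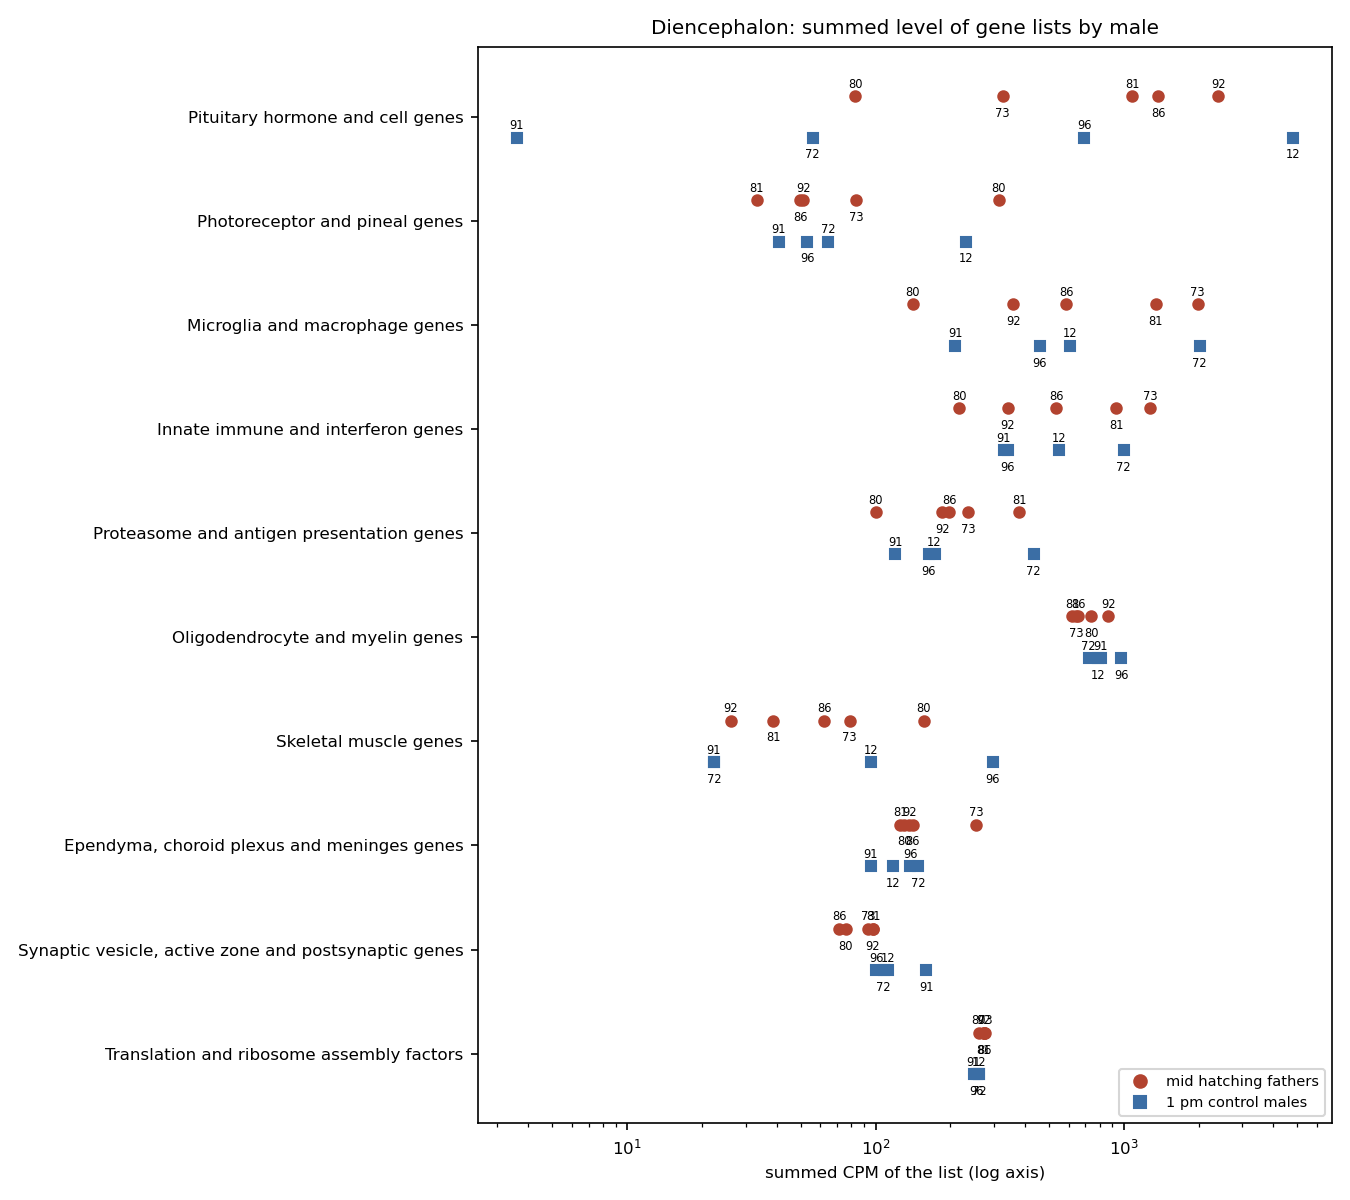
Summed CPM of 10 gene lists (log axis) is shown for each male, fathers as red circles and 1 pm control males as blue squares, with male numbers. Father and control points mix in 9 of the lists, and the synaptic sum is apart only through prkca and cnih2, chosen for groups that do not overlap, since the other 5 genes sum to 25.7 to 36.8 CPM against 23.2 to 34.6 CPM. Pituitary genes span 3.60 to 4807 CPM. Not drawn are the 2 respiratory chain genes, whose sums were also apart, at 76.3 to 87.2 against 68.6 to 72.9 CPM. Of these 2, atp5s was chosen for groups that do not overlap.

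The other 4 stages, each set against control males of its own hour, share no male with this comparison. Nest, eggs and early hatching share the control males of 9 am, so their differences are not independent of each other. Of the 6 leading genes that stood lower at mid hatching, 5 passed the threshold at late hatching in the same direction, 4 hours later in other males: prkca with -1.31 (SE 0.22, adjusted p = 0.00138), SCUBE1 with -0.93 (adjusted p = 0.00195), sox19a with -0.81 (adjusted p = 0.00361), cnih2 with -0.82 (adjusted p = 0.00804) and cxadr with -0.65 (adjusted p = 0.00878). Over all genes, 524 of 18609 (2.82%) passed at late hatching, 318 of them lower. The share among all genes with a name is not given here. These 5 genes have names because the study had selected them, so their count says little by itself. At early hatching, 4 hours earlier, the same 5 genes differed by -0.26 to 0.058. None of the 8 genes that stood higher passed at late hatching. socs7 ENSGACG00000014777 differed by 0.13 at the nest stage, 0.076 with eggs, 0.12 at early, 0.96 at mid and 0.74 at late hatching, prkar2ab by 0.59, 0.33, 0.55, 1.00 and 0.40, and aass by 0.20, -0.021, 0.17, 0.34 and 0.039. CCRN4L (1 of 2) lay between 0.28 and 0.41 at all 5 stages.

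When the difference between stages was tested itself, no gene's mid hatching change differed from its late hatching change, its early hatching change or the mean change of the other 4 stages at an adjusted p under 0.01 (0 genes each in the edgeR quasi-likelihood test, with 1306, 1338 and 1359 genes at an unadjusted p under 0.05). One gene, ENSGACG00000008670, had an adjusted p of 0.0477 against early hatching: its level was lower at mid hatching (-0.81) and not at early hatching (0.47). Omission of 1 male left no gene under 0.05 in that contrast, except that without father 81 there was 1, at 0.0492 in the same test.

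**Figure D4:**
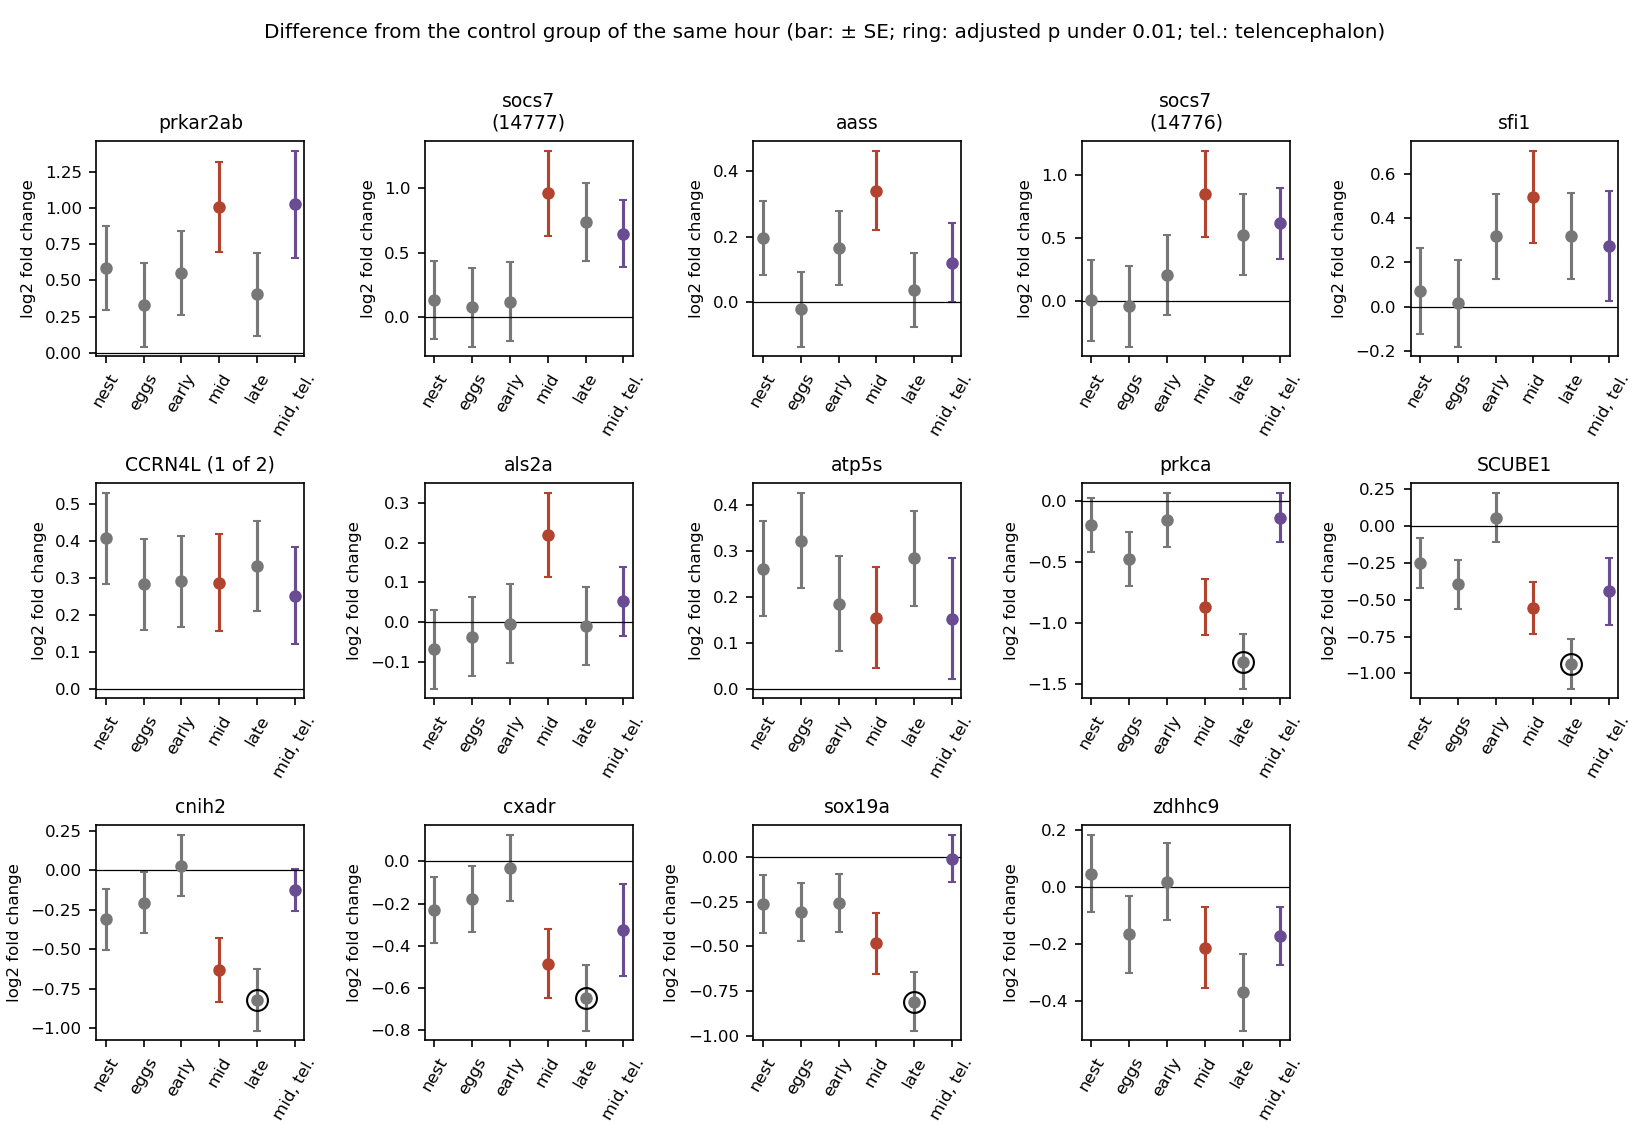
Each panel gives the log2 fold change of 1 leading gene against the control group of the same hour (bars are SE) for the diencephalon at the 5 stages and for the telencephalon at mid hatching, with vertical axes scaled per gene. Black rings mark adjusted p under 0.01 and appear only at late hatching, in prkca, SCUBE1, cnih2, cxadr and sox19a; the mid hatching values of these 5 lie between -0.87 and -0.48.

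Over all genes, late hatching had 524 genes with an adjusted p under 0.01 (2.82%), 206 higher and 318 lower. Of these, 500 (95.4%) had the same direction at mid hatching and 251 (47.9%) also an unadjusted p under 0.05 there, beside 13.9% of all genes. In 137 of the 524 the mid hatching fathers did not overlap with their control males in that direction. Over all genes the groups did not overlap in 5.44%, in either direction. Over all 18609 genes, 67.2% had the same direction at mid and late hatching. At the nest stage 89.3% of the 524 genes had the late direction, beside 66.1% of all genes, and 35.3% also an unadjusted p under 0.05, beside 15.5% of all genes. With eggs these values were 93.9% beside 68.0% and 47.5% beside 17.3%, and at early hatching 76.3% beside 57.8% and 9.54% beside 6.29%. The differences between stages in these shares were not tested, and nest, eggs and early hatching share the same control males. The 318 genes lower at late hatching had a median of -0.61 there and -0.29 at mid hatching, and the 206 higher genes 0.44 and 0.16. The late values chose the genes and are the larger for it. Turned round, 9.72% of the 2581 genes with an unadjusted p under 0.05 at mid hatching were called at late hatching. Across all 18609 genes, which are not independent, the log2 changes of mid and late hatching had a Pearson r of 0.26 and a Spearman rho of 0.43, and those of mid and early hatching 0.028 and 0.079. The share of reads outside genes had group means of 48.6% to 49.8% over the 5 stages and 44.5% to 47.8% over the 3 control groups, and its part in these values was not tested.

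**Figure D5:**
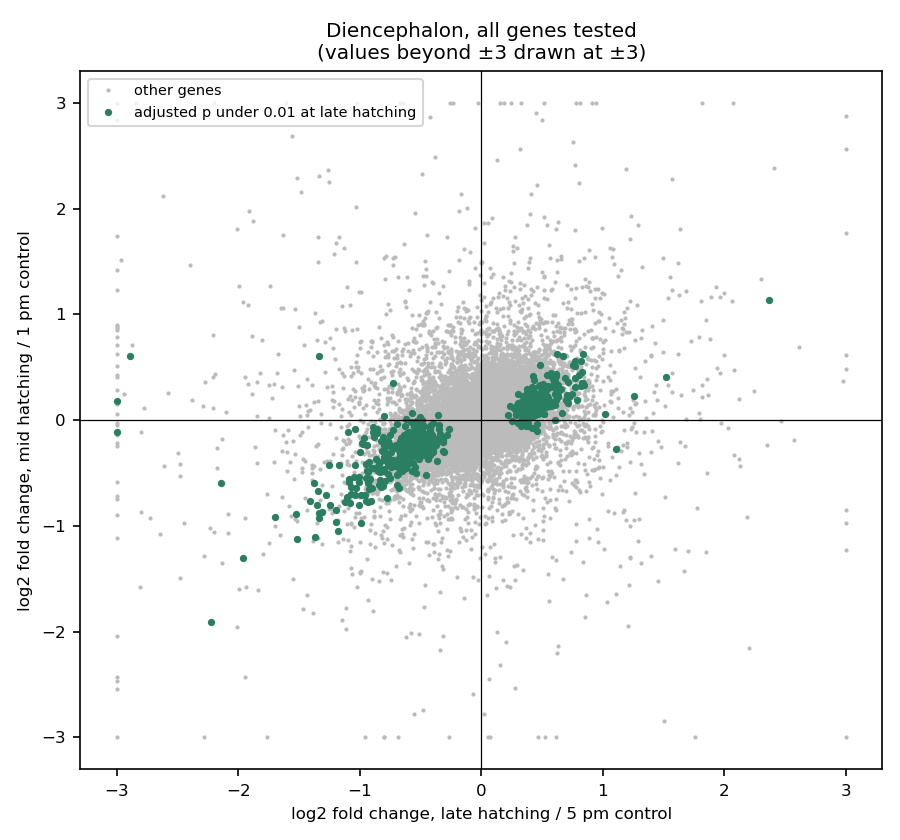
Each of the 18609 genes is placed by its log2 fold change at late hatching (horizontal) and at mid hatching (vertical), each against control males of its own hour. Of the 524 genes with an adjusted p under 0.01 at late hatching (green), 500 lie in the lower left and upper right fields.

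The telencephalon of the same 5 fathers was set against that of 5 control males of 1 pm, the 4 above among them, so it is not an independent sample of males. No gene there had an adjusted p under 0.01, 2 had one under 0.05, and 1024 of 18397 genes (5.57%) had an unadjusted p under 0.05. Of 2556 genes at that p in the diencephalon that were also tested in the telencephalon, 2277 (89.1%) had the same direction there and 349 (13.7%) also reached it. These 349 are 34.8% of the 1004 telencephalon genes at that p that were also tested in the diencephalon. The share of all genes with the same direction in both regions was not computed, so 89.1% has no base beside it. Over the 18207 genes tested in both regions, the log2 changes had a Pearson r of 0.37 and a Spearman rho of 0.48. prkar2ab differed by 1.02 (SE 0.37) in the telencephalon and 1.00 in the diencephalon, and socs7 ENSGACG00000014777 by 0.65 and 0.96. Among the genes lower in the diencephalon, prkca differed by -0.13 (SE 0.20) in the telencephalon against -0.87 in the diencephalon, cnih2 by -0.13 (SE 0.13) against -0.63 and sox19a by -0.011 (SE 0.13) against -0.48. With the male as a replicate block, which the pairing of the 2 libraries of a male allows, these 3 had unadjusted p of 0.0263, 0.0113 and 0.00219 for the difference between regions and adjusted p of 0.831, 0.737 and 0.682 in the quasi-likelihood test. They were chosen for their diencephalon values, which enter this difference, so the unadjusted p-values are biased low by the choice. The same test is not given here for the other leading genes that stood lower. No gene passed in that test of the difference, with the block (0 genes, 1098 at an unadjusted p under 0.05) or without it (0 genes, 520).

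The choice of control group was examined last. The 4 control males of 1 pm gave 0 genes with an adjusted p under 0.01 against the 10 of 9 am and 5 pm by the quasi-likelihood test and 7 by a likelihood ratio test, with 620 (3.33%) at an unadjusted p under 0.05. Set against the mean of the 3 control groups, the 5 fathers again gave 0 genes under 0.01, with 3177 (17.1%) at an unadjusted p under 0.05 and 17 under 0.01 in a likelihood ratio test, and 29 (0.156%) had an adjusted p under 0.05, 19 higher and 10 lower. All 29 had the same direction against the control males of 1 pm, which are part of both comparisons. Without father 80 there were 0 such genes and without father 73 there were 90. crybb2 was the only named gene among them. ENSGACG00000011932 differed by -0.47 (SE 0.093, adjusted p = 0.0292), with the fathers at 22.3 to 29.8 CPM and the 14 control males at 28.2 to 43.3 CPM. ENSGACG00000015807 was higher by 0.42 (SE 0.090, adjusted p = 0.0364), and its lowest father, at 24.2 CPM, was above the highest of the 14 control males, at 22.6 CPM. prkca, sox19a and prkar2ab, at 0.0802, 0.0763 and 0.0782, had the lowest adjusted p of the 14 leading named genes in this comparison.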

How the data were processed

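RNA was sequenced from single dissected diencephala and telencephala. Per the labels and the methods of the study, the authors aligned reads with TopHat2 2.0.8 to the repeat-masked stickleback genome of Ensembl release 75 (build not given beyond that in the sources used here) and counted them on genes with HTSeq 0.6.1. The deposited values are raw counts per gene. The libraries were made with a stranded kit. The study names no strand setting for the counting and states that programs ran with default settings where nothing else is said. Rows for reads outside genes, ambiguous or aligned to several places were left out of library sizes. No sample column was left unused and no pair of libraries was identical.

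Genes that reached 0.5 CPM in 5 or more of the 39 diencephalon libraries were tested with the quasi-likelihood test of edgeR 4.0.16 (R 4.3.3) after TMM scaling, with 1 fit over the 8 groups and contrasts of father groups against the control group of the same hour; p-values were adjusted by Benjamini and Hochberg, with the threshold of 0.01. CPM uses the same scaling. SE is the log2 change over the square root of F. The code was tested on simulated data. Named genes are those with adjusted p under 0.01, otherwise up to 15 per direction with a symbol, a mean of at least 1 CPM and no overlap; at most 2 unnamed per direction; the 4 of lowest p in each list; and genes the study names in its text. Genes named outside this rule are said to be so or serve as list members. Members and lists were chosen with earlier results of these data known. Of 25 lists, 19 held a gene that could be matched, and 1 listed gene is not reported here; names for 681 identifiers came from the supplementary tables of the study. Both libraries of a male come from the same animal, and their deviations from the group means correlated (lowest r 0.143 over 39 pairs), so the male served as a block for the difference between regions. Alternatives were RLE and upper quartile scaling, other filters, a likelihood ratio test, DESeq2 1.42.0, the 2 groups alone, a covariate, other thresholds and omission of each male. Library totals were 18672897 to 23570871 counts, and counting error was not separated from the spread between males.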

Additional observations from a re-analysis of the deposited data

Results flagged for a closer look

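Values were examined in 196 groups (78 genes, 19 lists and the share of reads outside genes, each in fathers and 1 pm control males). In 31 of them 1 male lay far from the others of its group by Dixon's test at the 95% level. With independent groups of normally distributed values about 9.8 would do so. Many of these genes vary together and the lists sum some of them, so 31 cannot be judged against 9.8. Control male 12 accounted for 10 of the 31 and father 80 for 7. In control male 12 the pituitary genes summed to 4807 CPM, with 1553 CPM of gh1 and 735 CPM of prl, and the neuropeptide and hormone list to 1873 CPM. The same male had 230.4 CPM over the photoreceptor and pineal genes, 7.85 CPM of irbp, which carries retinoids between retinal cells, 1.89 CPM of rcv1, a recoverin, 2.98 CPM of inaa, a neuronal filament gene, 3.82 CPM of HES5 (4 of 9), a Notch target gene, and 48.0% of reads outside genes. Father 80 had 314 CPM over the photoreceptor and pineal genes, 1.77 CPM of irbp, 0.807 CPM of rcv1 and 3.99 CPM of inaa. It also stood apart in the muscle genes TNNT3 (2 of 2), at 5.10 CPM, and mylpfb, at 2.67 CPM, and was lowest in the translation and ribosome assembly list, at 261 CPM.

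Control male 72 had 122 CPM of grn2, a granulin, 70.6 CPM of PIK3R5 (1 of 2), a regulatory subunit of a phosphoinositide kinase of leukocytes, 9.04 CPM of psmb10 (6 of 6), 12.8 CPM of psmb9a (3 of 5) and 433 CPM over the proteasome and antigen presentation list. Father 81 stood apart in the same immunoproteasome genes, at 5.77 and 10.8 CPM, and in scg2a, a secretogranin of neuroendocrine vesicles, at 125 CPM. Father 73 had 105 CPM of cebpd and 254 CPM over the ependyma and meninges list. Control male 91 had 48.9 CPM of prkca and 76.4 CPM of cnih2, control male 96 had 0.428 CPM of mylpfb, and father 86 had 42.7 CPM of ENSGACG00000002437. What sets these males apart was not tested.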

How the results depend on the processing

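The count at an adjusted p under 0.01 between the fathers and the 1 pm control males stayed 0 with RLE or upper quartile scaling. It was also 0 without a filter, with a filter of 5 CPM, with the likelihood ratio test and with the 2 groups alone. Adding the percentage of reads that lay outside genes to the model, as a covariate, left the count at 0. Omission of each of the 9 males in turn also gave 0, and DESeq2 gave 2. At adjusted p under 0.05 and 0.10 the main quasi-likelihood fit also gave 0. There the likelihood ratio test gave 6 and 75 genes, DESeq2 62 and 192, and the quasi-likelihood test without father 73 gave 1 and 38. The other settings gave 0 at 0.05 and at most 3 at 0.10. The genes at an unadjusted p under 0.05 numbered 1765 to 2709 without 1 male, in place of 2581, and 1383 with the covariate; the cause was not tested. Leaving out the 3 males high in microglia genes or the 2 high in photoreceptor genes, both chosen after seeing the data, also gave 0. The main fit had no call to lose, so these omissions cannot show what part these tissues or cells play. Against early hatching, 1 gene was called by the likelihood ratio test and 1 at adjusted p under 0.05. Between the control groups, the likelihood ratio test called 7, and omissions of 1 male gave 0 to 1. Against the mean of the 3 control groups, the likelihood ratio test called 17, adjusted p under 0.05 gave 29, and omissions gave 0 to 1. In the telencephalon the likelihood ratio test called 2 and adjusted p under 0.05 gave 2. The difference between regions had 0 calls in every setting, with and without the male as a replicate block; at an unadjusted p under 0.05 the block gave 1098 in place of 520. The difference in the share of reads outside genes, 2.37 percentage points, was 2.12 to 2.79 in the 8 omissions of 1 male in which its exact permutation p rose above 0.05 and 2.96 without control male 12, where p was 0.0357; of all reads listed it was 1.99. Among 78 genes named or listed, 54 kept their direction in all 17 alternatives and 24 did not, none of which had an unadjusted p under 0.05. The 54 include the 18 leading genes, chosen for groups that do not overlap. With the covariate the log2 difference was grn2 0.59, inaa -0.36, psmb11 (3 of 5) 0.036, slc1a2a -0.37 and stat3 0.019, and without a filter that of gria3a was 0.00261. Without 1 male, the lowest and highest differences were -0.77 to 0.45 for HES5 (4 of 9), -0.46 to 0.84 for c1qc, -0.045 to 1.55 for cebpb, -0.065 to 0.92 for cebpd, -1.13 to 1.61 for cga, -1.08 to 3.52 for gh1, -0.11 to 0.19 for gria3a, -0.84 to 1.27 for grn2, -0.44 to 0.69 for hmox1a, -1.52 to 2.94 for inaa, -5.67 to 3.32 for irbp, -0.41 to 1.25 for irf8, -0.31 to 0.98 for lcp1, -1.66 to 0.020 for lhb, -0.27 to 4.88 for mylpfb, -0.52 to 3.53 for prl, -3.13 to 0.19 for psmb10 (6 of 6), -0.99 to 0.72 for psmb11 (3 of 5), -2.96 to 0.014 for psmb9a (3 of 5), -2.08 to 1.60 for rcv1, -0.020 to 0.12 for rps25, -0.76 to 0.50 for slc1a2a and -0.025 to 0.070 for sox2. The library totals were 18672897 or more, and counting error was not separated from the spread between males. It weighs most in genes with few counts, and 5 against 4 males limit the comparison.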

Other observations

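Genes of the ventricle lining and its coverings did not separate the groups. None of 6 such genes tested had an unadjusted p under 0.05, 5 were above 0 and the median difference was 0.22. epdl1, an ependymin-like gene, had 122, 12.1, 63.3, 11.1 and 16.4 CPM in the fathers and 22.2, 45.1, 11.7 and 16.6 CPM in the control males, highest in father 73. CCDC39 and ccdc40, which assemble motile cilia, differed by 0.32 (SE 0.20) and 0.26 (SE 0.23), and both were lower in father 81 than in every other father. sox2, a transcription factor of radial glia and neural progenitors, ranged over 62.6 to 79.1 CPM against 63.1 to 76.2 CPM, and none of the 3 radial glia and astrocyte genes had an unadjusted p under 0.05 (median 0.025). The same held for the 2 neuron genes (median 0.18) and for the 12 proteasome and antigen presentation genes (median -0.035). Of the 2 respiratory chain genes (median 0.18), atp5s was chosen above for groups that do not overlap and ndufa7 overlapped. Summed over the 2, the fathers had 76.3 to 87.2 CPM and the control males 68.6 to 72.9 CPM, without overlap. Of that sum atp5s makes up 55.3%.

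The males also differed in how far they lay from the others of their group. The number of genes at least 2-fold away from the rest of the group ranged from 261 in control male 12 to 898 in father 73, with 869 in father 80, 754 in control male 72 and 717 in control male 91.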
